A study of Bos taurus with 6 samples.

Results

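The Hippo pathway genes described here were YAP1, WWTR1, TEAD1, TEAD2, TEAD3, TEAD4, LATS1, LATS2, ANKRD1 and AMOTL2, chosen by symbol as 10 of the 34733 named genes in the files. They were read in poly(A) RNA libraries of cells of the side population (SP) and the main population (MP), sorted from the endometrium (uterine lining) of cows, Bos taurus, in the luteal phase. The tissue came from slaughterhouse uteri, was freed of luminal epithelium and digested with collagenase, and was prepared as stromal cells. SP cells were gated as those that pump out the dye Hoechst, a step that verapamil blocks, and MP cells as those that keep it, with dead cells removed in both. There were 3 libraries of each, no genotype or drug treatment distinguished them, and whether each replicate was a different animal is not labelled. The p-values therefore cover the spread among these samples alone, which may be technical.

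Hippo signalling is a kinase cascade that restrains tissue growth and responds to cell density, polarity and mechanical tension. Its last kinases, LATS1 and LATS2, phosphorylate the transcriptional coactivators YAP (gene YAP1) and TAZ (gene WWTR1), which keeps them out of the nucleus. When not phosphorylated, YAP and TAZ enter the nucleus and bind the TEAD transcription factors, which carry the DNA-binding domain that the coactivators lack. ANKRD1 and AMOTL2 are widely used target genes of this complex, and AMOTL2, an angiomotin, can also hold YAP at cell junctions. Activity of the pathway is set largely by phosphorylation and location of these proteins, which RNA levels do not measure.

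The files give FPKM, a fragment count divided by transcript length and library total, which allows levels of different genes to be compared within a library. Depth, read from the steps of the lowest values, was 1.60 and 1.83 times that of SP replicate 1 in SP replicates 2 and 3, and 2.01 to 3.22 times in MP. Every SP library was thus shallower than every MP library. Per the file headers the MP columns alone carry the word micro, which is not explained, and what it marks cannot be told apart from the population. Cell type markers differed between the populations. Of 14 endothelial markers, 13 were called higher in SP, with a summed level of 1771 to 2825 FPKM in SP and 199 to 1079 FPKM in MP. Of 10 fibroblast markers 9 were called lower in SP (288 to 484 FPKM summed in SP, 3092 to 11340 FPKM in MP). Of 10 tested myeloid markers 8 were called lower in SP (112 to 142 FPKM summed in SP, 469 to 920 FPKM in MP). In all SP libraries 4 of these 10, and 2 of the 10 fibroblast markers, were under 1 FPKM. Those markers entered the test through MP and could be called only as lower in SP. The SP libraries, although prepared from stroma, were thus low in the fibroblast markers that define it. Epithelial markers, none of 9 called, summed to 191, 1785 and 986 FPKM in SP replicates 1 to 3. In MP replicates 1 to 3 they summed to 1000, 4655 and 1253 FPKM. The epithelial sum was above the fibroblast sum in SP replicates 2 and 3, and its part in the members' levels was not tested.

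WWTR1 and TEAD4 were higher in SP, at 3.49 and 3.88 times their mean level in MP, and LATS1 was higher at 2.99 times. YAP1 and TEAD2 had lower values in every SP library than in any MP library but did not pass the test. Within the limma fit on log2(FPKM + 1) over 12127 genes, 3 of the 9 members tested rose in SP and none fell (Benjamini-Hochberg adjusted p under 0.05). Of all tested genes 39.2% were called, 20.5% higher and 18.7% lower, so the members' share was near that of the transcriptome. At an unadjusted limma p under 0.05, 6 members were higher and 1 was lower, against 26.3% and 24.0% of all tested genes. The median log2 difference was 0.65 over the 9 members and 0.01 over all tested genes. Without SP replicate 1 only LATS1 was called, and 9.71% of all tested genes were called higher. LATS1 reached the filter on low values (1 FPKM in 3 libraries) with its 3 SP libraries and only 1 MP library, so its entry into the test, and its place in the count of 3, rested on SP. Without MP replicate 3, WWTR1 and TEAD4 were at 5.29 and 7.20 times their MP mean, the highest with 1 library left out. The lowest came without MP replicate 1, at 2.80 and 2.94 times.

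**Figure D1:**
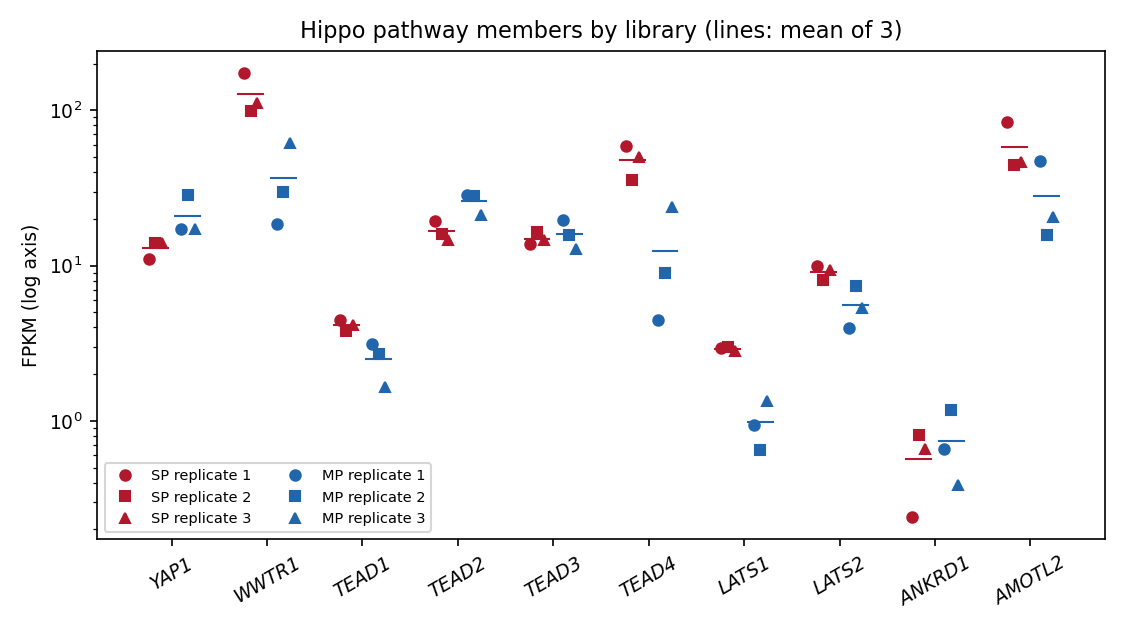
FPKM of the 10 members (log axis) in each SP library (red) and MP library (blue), with symbols for the replicate number and short lines for the mean of 3 libraries. WWTR1, TEAD4, LATS1, LATS2 and TEAD1 lie higher in all SP libraries than in any MP library, and YAP1 and TEAD2 lower. The MP values of WWTR1 and TEAD4 are spread widely.

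WWTR1, which encodes the coactivator TAZ, had the highest mean level of the members in both populations (chromosome 1, 118495192 to 118645507, build ARS-UCD1.2). Its levels were 174, 98.8 and 112 FPKM in SP replicates 1 to 3 and 18.6, 29.9 and 61.8 FPKM in MP replicates 1 to 3. All SP libraries lay above all MP libraries, and MP replicate 3 stood nearest to SP. The log2 difference was 1.90 ± 0.44 (SE; limma adjusted p = 0.014), and an exact permutation test over the libraries (two-sided) gave p = 0.1, the smallest that 3 against 3 allows. Without SP replicate 1 the difference was 1.66 and just missed the threshold (limma adjusted p = 0.0504). In bulk samples like these, fewer cells of a type and less RNA per cell cannot be told apart.

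YAP1, the paralog of WWTR1 (chromosome 15, 6499364 to 6634448), was at 11.1, 14.0 and 13.9 FPKM in SP against 17.2, 28.6 and 17.2 FPKM in MP. Its SP libraries all lay below its MP libraries, with MP replicate 2 highest. The log2 difference of −0.62 ± 0.27 (SE) did not pass (limma adjusted p = 0.101), and its 95% interval ran from −1.24 to 0.00. YAP1 was called in none of the 17 alternatives run (limma adjusted p from 0.0764 to 0.348).

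The proportion of the coactivators did not overlap between the populations. This, and the exact p given below, follow from WWTR1 being higher and YAP1 lower in every SP library, so they are not a separate result. The ratio of WWTR1 to YAP1 was 15.7, 7.05 and 8.01 in SP replicates 1 to 3 and 1.08, 1.05 and 3.60 in MP replicates 1 to 3. MP replicates 1 and 2 held about equal levels of the coactivators, whereas every SP library held several times more WWTR1. On the log2 scale the ratio was 3.26 ± 0.62 in SP and 0.67 ± 1.02 in MP (n = 3 each, SD; exact two-sided permutation p = 0.1, 0.175 adjusted over 7 paralog measures). A ratio within a library does not depend on scaling between libraries. Summed, YAP1 and WWTR1 reached 113 to 185 FPKM in SP and 35.8 to 79.0 FPKM in MP.

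Among the TEAD factors, TEAD4 (chromosome 5, 106768119 to 106835144) differed most. Its SP libraries, replicates 1 to 3, held 58.9, 35.8 and 49.9 FPKM, against 4.48, 8.91 and 23.9 FPKM in MP replicates 1 to 3. The groups did not overlap, and MP replicate 3 was again the MP library nearest to SP. TEAD4 rose by 2.12 ± 0.52 in log2 units (SE, limma adjusted p = 0.0168). Leaving out 1 library ended this call for SP replicate 1 (1.97, limma adjusted p = 0.0579), SP replicate 3 (2.09, 0.0505) and MP replicate 2 (2.05, 0.0513).

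Endothelial markers moved with both genes. Their summed level was 2825, 2122 and 1771 FPKM in SP replicates 1 to 3 and 199, 361 and 1079 FPKM in MP replicates 1 to 3, and none of the 14 was at 0 in any library. The MP library with the highest endothelial level, replicate 3, also held the most WWTR1 and TEAD4. SP replicate 1 was highest of all 6 libraries in all of these measures. Between the other SP libraries the order was opposite, since replicate 2 had the higher endothelial level and replicate 3 the higher WWTR1 and TEAD4. The part of endothelial cells in the levels of WWTR1 and TEAD4 was not tested.

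**Figure D2:**
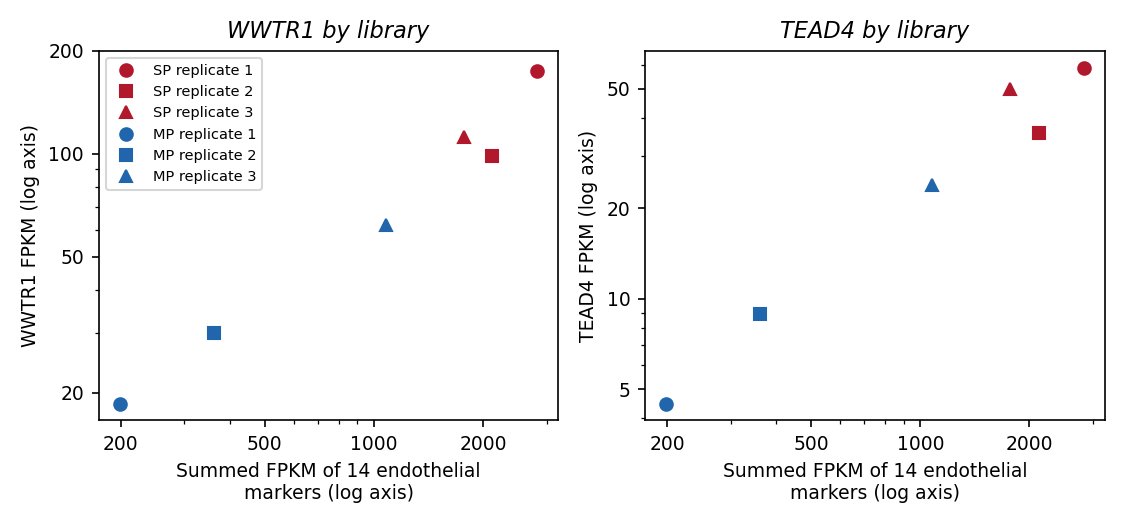
WWTR1 (left) and TEAD4 (right) in FPKM against the summed FPKM of 14 endothelial markers, all on log axes, with 1 point per library. MP replicate 3, at 1079 FPKM of endothelial markers, lies between the other MP libraries and the SP libraries in both panels.

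TEAD2 (chromosome 18, 55822220 to 55841632) was at 19.3, 15.9 and 14.6 FPKM in SP against 28.4, 28.2 and 21.0 FPKM in MP. Each SP library lay below each MP library, but the log2 difference of −0.61 ± 0.23 (SE) did not pass (limma adjusted p = 0.0712). It passed without MP replicate 3 (−0.75, limma adjusted p = 0.0443) and with quantile normalization (−0.69, 0.0467). The files list TEAD2 at the same locus as CD37, a tetraspanin gene of leukocytes, and whether strand was used in counting is not given, so reads of the pair may not be told apart. CD37 was at 0 to 0.0764 FPKM in SP against 22.1, 34.7 and 29.7 FPKM in MP, a log2 difference of −4.82 ± 0.24 (SE; limma adjusted p = 8.48e-05). Its part in the values of TEAD2 was not tested.

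TEAD1 (chromosome 15, 39740865 to 40015346), the scarcest TEAD, was at 4.43, 3.79 and 4.14 FPKM in SP against 3.15, 2.69 and 1.65 FPKM in MP. The SP values were all above the MP values, with a log2 difference of 0.57 ± 0.24 (SE; limma adjusted p = 0.0947). TEAD3 (chromosome 23, 9433299 to 9456216) was at 13.7, 16.4 and 14.7 FPKM in SP against 19.5, 15.8 and 12.9 FPKM in MP. Its groups overlapped, and the log2 difference was −0.08 with a 95% interval from −0.63 to 0.46.

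The makeup of the TEAD family was described by the share of each paralog. TEAD4 made up 61.1%, 49.8% and 59.9% of the summed TEAD FPKM in SP replicates 1 to 3 and 8.06%, 16.0% and 40.2% in MP replicates 1 to 3. TEAD2 made up 17.5% to 22.1% in SP and 35.4% to 51.1% in MP. TEAD4 was the leading TEAD in all 3 SP libraries and in MP replicate 3, and TEAD2 led in MP replicates 1 and 2. The share of TEAD4 differed by 35.5 percentage points and that of TEAD2 by −25.9 points, SP minus MP, each with no overlap between groups (exact two-sided permutation p = 0.1, adjusted over 7 measures 0.175). For TEAD2 this follows from its lower values and the higher summed TEAD level in every SP library. For TEAD4 it follows largely from its higher level in every SP library, so neither share is a separate result. The share of TEAD3 was lower in SP by 10.2 points with overlapping groups (exact permutation p = 0.2), and that of TEAD1 was 4.95% ± 0.34 in SP and 4.42% ± 1.49 in MP (n = 3 each, SD). Within a library TEAD4 exceeded TEAD1 by 9.43 to 13.3 times in SP and 1.42 to 14.5 times in MP, where the highest ratio was that of MP replicate 3. The log2 ratio of TEAD4 to TEAD1 differed by 1.49 between the populations (exact permutation p = 0.4), by 2.40 without MP replicate 3 and by 0.73 without MP replicate 1. The summed TEAD level was 71.8 to 96.4 FPKM in SP and 55.5 to 59.4 FPKM in MP.

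**Figure D3:**
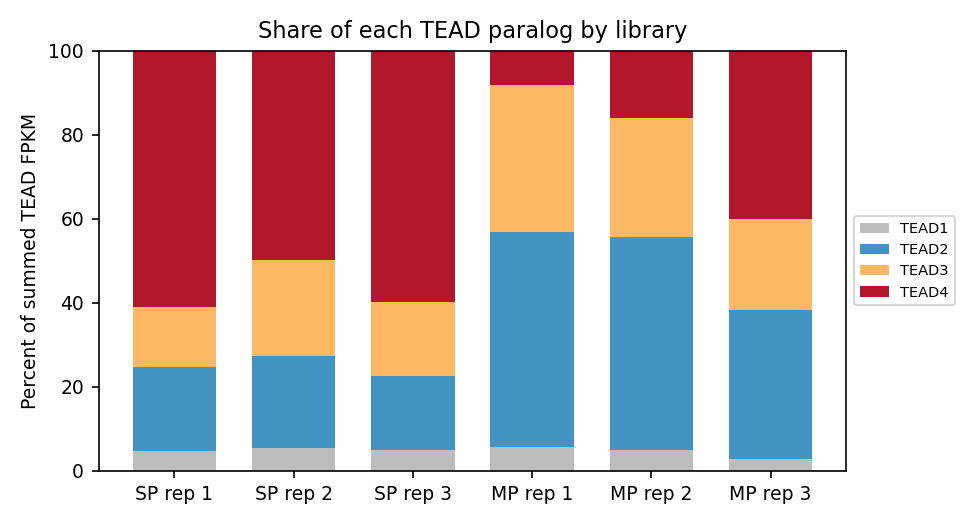
Each bar is 1 library and its colours give the percent of the summed TEAD FPKM that each of the 4 paralogs took. TEAD4 takes 49.8% to 61.1% in the SP libraries and 8.06% to 40.2% in the MP libraries, where TEAD2 takes the larger part of replicates 1 and 2.

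Of the kinases, LATS1 (chromosome 9, 86860562 to 86897588) was at 2.93, 2.99 and 2.83 FPKM in SP against 0.934, 0.645 and 1.35 FPKM in MP. The SP values lay within 1.06 times of each other and all above MP. LATS1 rose by 1.00 ± 0.22 in log2 units (SE, limma adjusted p = 0.0111), a call that held without any 1 of the 6 libraries and when low genes were not filtered out (limma adjusted p = 0.0302). In MP, replicates 1 and 2 lay under that filter. Another listed gene, LOC782566, shares its locus at 0.175 to 0.616 FPKM over the 6 libraries.

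LATS2 (chromosome 12, 35649320 to 35700415), the other kinase, was the more abundant in every library, at 9.90, 8.01 and 9.43 FPKM in SP against 3.96, 7.37 and 5.36 FPKM in MP. Its SP values lay above its MP values with SP replicate 2 close to MP replicate 2. The log2 difference was 0.65 ± 0.26 (SE) and did not pass (limma adjusted p = 0.0809), except with each library rescaled to a common sum (0.87, 0.0421). The ratio of LATS2 to LATS1 was 2.68 to 3.38 in SP and 3.98 to 11.4 in MP, with no overlap (exact two-sided permutation p = 0.1, 0.175 adjusted over 7 measures). Its denominator, LATS1, was at only 0.645 to 1.35 FPKM in MP and entered the test through SP. The ratio and its p are thus not a result separate from the LATS1 difference. The log2 ratio was lower in SP by 0.89, and by 0.40 without MP replicate 2, whose ratio of 11.4 was the highest. Together the kinases reached 11.0 to 12.8 FPKM in SP and 4.90 to 8.02 FPKM in MP.

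The 2 target genes among the members were not called over all libraries. AMOTL2 (chromosome 1, 134947949 to 134965878) was at 83.5, 44.5 and 46.7 FPKM in SP against 47.4, 15.8 and 20.5 FPKM in MP. In each population replicate 1 was highest, and MP replicate 1 lay above SP replicates 2 and 3. The log2 difference was 1.13 ± 0.43 (SE; limma adjusted p = 0.0716), and without MP replicate 1 it was 1.58 and passed (limma adjusted p = 0.0218). It also passed with each library rescaled to a common sum (1.35, limma adjusted p = 0.0375), and in 4 of the 17 alternatives in all. ANKRD1, a nuclear ankyrin repeat protein of muscle and injured tissue (chromosome 26, 12533108 to 12542479), was scarce, at 0.241, 0.812 and 0.659 FPKM in SP against 0.660, 1.18 and 0.386 FPKM in MP. Only MP replicate 2 reached 1 FPKM, so ANKRD1 was the member left out of the fit, and its groups overlapped (exact permutation p = 0.5).

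**Figure D4:**
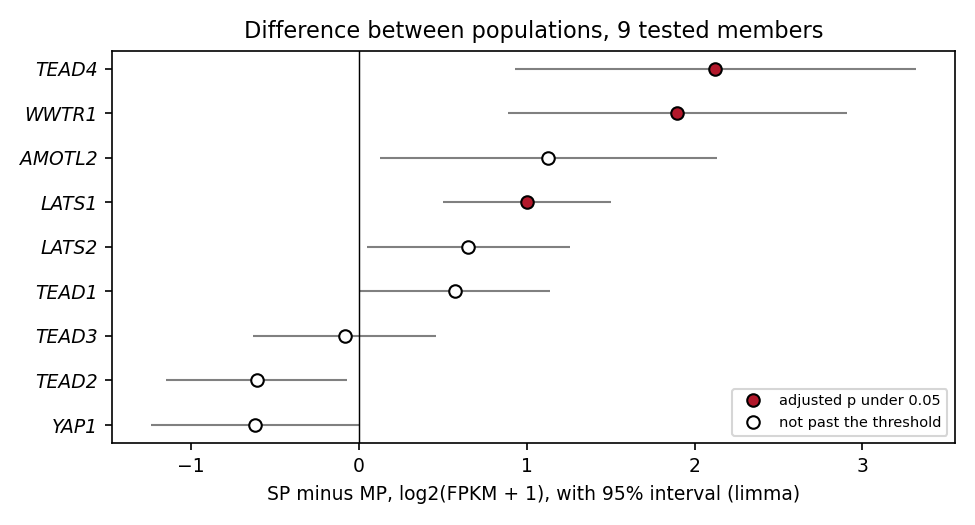
Difference between SP and MP on the log2(FPKM + 1) scale for the 9 tested members, with the 95% interval from limma, unadjusted for the number of genes. Filled points (TEAD4, WWTR1 and LATS1) passed the adjusted threshold, and YAP1, TEAD2 and TEAD3 have estimates below 0.

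In 7 of the 9 tested members the 3 SP values did not overlap the 3 MP values, against 54.8% of all tested genes. These were WWTR1, TEAD4, LATS1, LATS2 and TEAD1 with higher values in SP, and YAP1 and TEAD2 with lower values. Ordered by mean level in SP, WWTR1 at 128 ± 40.3 FPKM stood above AMOTL2 at 58.3 ± 21.9 and TEAD4 at 48.2 ± 11.7 FPKM (n = 3 each, SD), and the last pair overlapped. TEAD2, TEAD3 and YAP1 followed at 16.6, 14.9 and 13.0 FPKM, and each overlapped its neighbour. LATS2, TEAD1, LATS1 and ANKRD1 came next, each apart from its neighbour. In MP the first 7 means, from WWTR1 at 36.8 ± 22.4 FPKM through AMOTL2, TEAD2, YAP1, TEAD3 and TEAD4 (12.4 ± 10.2 FPKM) to LATS2 at 5.57 ± 1.71 FPKM, formed a run in which every neighbour overlapped. TEAD1 stood apart from both LATS2 and LATS1, and LATS1 and ANKRD1 overlapped. Variation within a population was smallest for LATS1 in SP and largest for TEAD4 in MP, where the highest library was 5.33 times the lowest.

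The other pathway genes came from a list of 31 upstream kinases, scaffolds, cadherins and TEAD cofactors. Of these 30 were in the files, 28 were tested, 12 rose in SP and none fell by limma, against 20.5% of all tested genes called higher. At an unadjusted limma p under 0.05, 15 were higher and none lower, against 26.3% and 24.0% of all tested genes. Among these 15, FAT4 was at 1.32 to 2.20 FPKM in SP and 0.552 to 0.920 FPKM in MP. It met the filter through SP alone and could count only as higher. The median log2 difference was 0.63, against 0.01 for all tested genes. Without SP replicate 1 the count was 6, when 9.71% of all tested genes were called higher. In the same libraries 13 of 14 endothelial markers were called higher and 9 of 10 fibroblast markers lower, and the part of these cells in the regulators' levels was not tested. The 12 were STK3, SAV1, WWC2, WWC3, TAOK1, TAOK2, MAP4K4, MINK1, PTPN14, DLG5, SCRIB and AMOTL1.

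PTPN14, a phosphatase-family protein that binds YAP, had the largest difference, with 26.0, 14.1 and 13.8 FPKM in SP and 1.86, 2.83 and 4.37 FPKM in MP (log2 2.23 ± 0.34 SE, limma adjusted p = 0.00407). MINK1, a kinase of the MAP4K group that can activate LATS, was at 31.5 ± 8.93 FPKM in SP against 10.8 ± 1.19 FPKM in MP (n = 3 each, SD; limma adjusted p = 0.00659). The WWC scaffolds, relatives of KIBRA that bring LATS to the membrane, were also higher. WWC3 was at 27.6 ± 4.59 FPKM in SP against 9.48 ± 2.78 FPKM in MP (limma adjusted p = 0.00709), and WWC2 at 18.3 ± 0.78 and 5.76 ± 2.87 FPKM (0.00806). TAOK2, a kinase that acts on the core kinases MST1 and MST2, was at 12.0 ± 3.21 FPKM in SP against 3.47 ± 1.40 FPKM in MP (limma adjusted p = 0.00957). Those 5 calls held without any 1 library.

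The core scaffold SAV1 and the core kinase STK3 (MST2) were among the 12, whereas its paralog STK4 (MST1) was at 0.898 to 1.06 FPKM in SP and 0.961 to 1.27 FPKM in MP. The most abundant regulators that did not pass were RASSF1 and VGLL4. RASSF1, a scaffold of the core kinases, was at 64.0, 21.0 and 18.7 FPKM in SP against 33.0, 20.4 and 39.0 FPKM in MP, with SP replicate 1 above the rest. VGLL4, which competes with YAP for TEAD, was at 20.4 ± 0.63 FPKM in SP against 17.3 ± 2.13 FPKM in MP (n = 3 each, SD), and its 95% interval of the log2 difference ran from −0.26 to 0.71. Its locus is shared with ATG7. VGLL2 is listed at 0 in all 6 libraries.

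Target genes outside the members did not move one way. Of 19 listed, 17 were tested, 5 rose and 4 fell by limma, so 52.9% were called against 39.2% of all tested genes. Their median log2 difference was 0.67. MYOF, a membrane repair protein, was at 27.5, 23.1 and 25.5 FPKM in SP against 4.96, 6.95 and 6.09 FPKM in MP (log2 1.92 ± 0.22 SE, limma adjusted p = 0.00186). PTPN14, which is on both lists, CRIM1, a transmembrane protein that binds bone morphogenetic proteins, and ASAP1, an Arf GTPase activator, also rose, CRIM1 from 26.8 ± 11.4 to 94.1 ± 13.2 FPKM and ASAP1 from 1.91 ± 1.21 to 9.86 ± 3.37 FPKM (n = 3 each, SD).

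The best known targets, the matricellular genes CTGF (CCN2) and CYR61 (CCN1), were abundant throughout. CTGF was at 1345, 692 and 972 FPKM in SP against 591, 577 and 382 FPKM in MP (log2 0.93 ± 0.32 SE, limma adjusted p = 0.0487). This call was lost without any 1 of SP replicates 1 and 3 and of the 3 MP replicates (log2 from 0.69 to 1.04, limma adjusted p between 0.0773 and 0.142), and held without SP replicate 2. It was also lost with a pseudocount of 0.1 (limma adjusted p = 0.0507) and when low genes were not filtered out (0.0957), and CTGF was called in 6 of 17 alternatives in all (0.0198 to 0.188). CYR61 was at 1498, 472 and 678 FPKM in SP against 879, 328 and 476 FPKM in MP. Its groups overlapped and in each population replicate 1 was highest, as for AMOTL2 (limma adjusted p = 0.361). GADD45A, a stress response gene, was at 656, 467 and 285 FPKM in SP against 304, 346 and 168 FPKM in MP (limma adjusted p = 0.149).

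The targets that fell in SP were AXL, CCDC80, FOXF2 and ARHGEF17. AXL, a receptor tyrosine kinase, was at 2.15, 4.59 and 6.16 FPKM in SP against 39.3, 26.4 and 20.9 FPKM in MP (log2 −2.53 ± 0.37 SE, limma adjusted p = 0.00354). CCDC80, a matrix protein, was at 3.92 ± 0.75 FPKM in SP against 31.0 ± 25.2 FPKM in MP (n = 3 each, SD; limma adjusted p = 0.0103). FOXF2, a transcription factor of mesenchyme, is listed at 0 in SP replicate 1, was under 1 FPKM in all SP libraries and was at 2.15 to 7.36 FPKM in MP, so it could enter the test only as lower in SP. ARHGEF17 was at 1.42 ± 0.58 FPKM in SP against 3.04 ± 0.42 FPKM in MP (n = 3 each, SD; limma adjusted p = 0.0406), a call lost without any 1 of SP replicates 1 and 2 and of the 3 MP replicates (limma adjusted p between 0.069 and 0.129) and held without SP replicate 3. It was also lost with libraries rescaled (limma adjusted p = 0.133), with quantile normalization (0.0543), with low genes kept (0.0879) and with mitochondrially encoded and ribosomal protein genes left out (0.0868), so ARHGEF17 was called in 4 of 16 alternatives. The fibroblast markers, 9 of 10 called lower in SP, differed in the same direction as these 4 genes, and none of the 10 was at 0 in any library. Within the populations the order mostly differed. The fibroblast sum was 11340, 5282 and 3092 FPKM in MP replicates 1 to 3, an order shared by AXL alone. CCDC80, FOXF2 and ARHGEF17 were lowest in MP replicate 2. In SP replicates 1 to 3 the sum was 343, 288 and 484 FPKM, an order shared by ARHGEF17 alone. The part of fibroblasts in the differences was not tested.

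**Figure D5:**
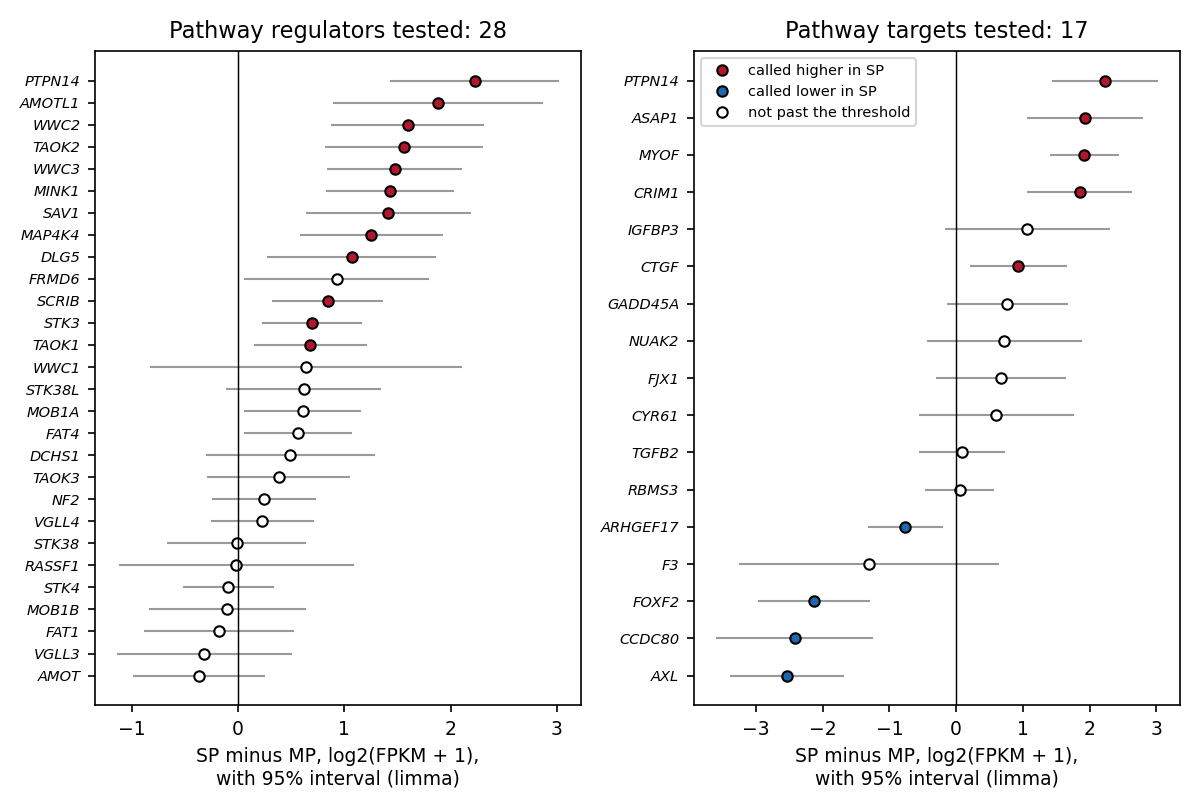
Difference between SP and MP on the log2(FPKM + 1) scale for 28 tested regulators (left) and 17 tested target genes (right), with 95% intervals from limma. Red points were called higher and blue points lower in SP: 12 regulators are red and none blue, and the targets hold 5 red and 4 blue.

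By the root mean square difference of log2(FPKM + 1), centred on each gene's mean over the 6 libraries, the genes with the pattern most like WWTR1 were COBLL1 (0.07), REL (0.10) and TGIF1 (0.12). COBLL1 was at 47.2, 26.8 and 30.5 FPKM in SP against 5.03, 7.83 and 15.7 FPKM in MP. Those most like YAP1 were HAUS1 (0.05), OGFRL1 (0.07) and HDAC8 (0.08). HAUS1, of the augmin complex of the spindle, was at 2.94, 3.51 and 3.59 FPKM in SP against 4.61, 7.47 and 4.58 FPKM in MP. Tested genes whose symbol begins with LOC were left out of this ranking. With 6 libraries in 2 groups many genes share a pattern, so the genes named are a description.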

How the data were processed

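The authors deposited FPKM per gene for each of 6 libraries, per the file headers, and no step that scales libraries to each other is recorded. Per the submitters' processing notes, cutadapt 2.5, HISAT2 2.1.0 and build ARS-UCD1.2 were used. What computed the FPKM, from which annotation and with which strand setting, is not given in the sources used here. Population and replicate number are those in the titles. Per the file headers, the columns of both libraries titled replicate 3 bear the number 4. A row that pools 662 symbols (0.18% to 1.91% of the values) was left out.

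The test took genes that reached 1 FPKM in 3 or more libraries and used limma 3.58.1 (R 4.3.3) on log2(FPKM + 1), two-sided and with a variance trend, with Benjamini-Hochberg adjustment over all tested genes and a threshold of 0.05. This scale understates the change of low genes. The fit and the depth estimate were tested on simulated data. Of 100 genes each changed by a log2 difference of 1 and of 2, the fit called 1% and 50%. Fewer genes changed there than were called in the data, which makes the adjusted threshold stricter. A gene that did not pass may thus still differ. Members, lists and named-gene rules were chosen with earlier results of these data known. Named from each list were the 5 called genes of smallest p per direction and the 2 most abundant not called. CCN1 and CCN2 were matched to CYR61 and CTGF through a table of assembly ARS-UCD2.0, which also gave chromosome numbers. The remaining marker lists were pericyte and smooth muscle (6 of 9 tested called lower in SP) and epithelial (none of 9 called). Mast cell (4 of 5 lower) and T and NK cell (4 of 4 lower) lists were also used. Every SP library held the whole T and NK list under 1 FPKM, so its tested genes entered through MP. They could be called only as lower in SP. The same held for any tested gene among 3 mast cell markers and 1 pericyte and smooth muscle marker, all under 1 FPKM throughout SP. Coordinates, counted from 1, are those of the files and span introns. An interval can also cover another gene, since TEAD2 and CD37 are listed with the same one.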

Additional observations from a re-analysis of the deposited data

How the results depend on the processing

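Across 17 alternative settings, WWTR1, TEAD4 and LATS1 kept their direction; WWTR1 was called in 14 of 17 (adjusted p from 0.0042 to 0.0886), TEAD4 in 12 of 17 and LATS1 in 14 of the 16 that tested it. With each library rescaled to a common sum, which shifted the median of all genes to 0.20, 5 members were called, all higher, 68.1% of all calls were higher in SP against 52.3% as deposited, and TEAD3 (0.13) and RASSF1 (0.20) changed sign without passing. RASSF1 also changed sign without mitochondrially encoded and ribosomal protein genes (0.032). Leaving out single libraries or both libraries of a replicate number gave 1065 to 4938 called genes (4759 in all libraries), 0 to 4 members, 1 to 11 regulators and 6 to 8 targets, with estimates from −0.23 to 0.11 for TEAD3 and −0.56 to 0.49 for RASSF1. The 0 came without replicate number 2, where 4 members were higher at an unadjusted limma p under 0.05 (18.2% of all tested genes). Without replicate number 1, 1 regulator was called higher (4.06% of all tested genes) and 12 were higher at an unadjusted p under 0.05 (17.0%). With no filter on low values 9 of 29 tested regulators were called, all higher, and 1836 of all 20810 genes tested there were called higher. Deviations of equally numbered libraries correlated at 0.105, 0.533 and −0.0854 across genes, so the numbers were not taken as pairs. With the replicate number as a block in the limma fit, 4793 genes and 4 members were called, AMOTL2 being added (limma adjusted p = 0.0179), and the call of CTGF was lost (0.051). The paralog measures kept their direction in the 8 alternatives run for them, but for the share of TEAD1, whose difference was −0.30 points without MP replicate 3. The low depth of SP limits statements on ANKRD1.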
